A study of Homo sapiens with 12 samples.

Results

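The KDM2B peak list of the leukaemia line K562 held 5942 peaks, of 79473 peaks in the lists of 7 human leukaemia lines, and all 5942 were taken. They were set against the lists of 6 lymphoid lines, and a peak counted as shared when it overlapped a peak of another list by at least 1 bp. The study mapped KDM2B by chromatin immunoprecipitation and sequencing (ChIP-seq) with an anti-KDM2B antibody from Millipore, in cells kept in IMDM medium with 10% fetal bovine serum and given no other treatment per the labels. There was 1 KDM2B library with 1 peak list for every line and no replicate, so the p-values below cover the spread of lines and of libraries at once. The 5 input libraries of the series, from K562, REH, SUP-B15, HPB-ALL and SIL-ALL, were not used here. DND41 and JURKAT had no input library in the series.

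K562 is an established line of chronic myeloid leukaemia, taken in blast crisis, with erythroid and megakaryocytic capacity. It carries the BCR-ABL1 fusion, which joins BCR of band 22q11.23 to ABL1 of band 9q34.12, and is known to hold it in extra copies. SUP-B15, a line of B-precursor acute lymphoblastic leukaemia (B-ALL), carries BCR-ABL1 too. REH is a B-ALL line with the ETV6-RUNX1 fusion. The T-lineage counterpart, T-ALL, is represented by JURKAT, DND41, HPB-ALL and SIL-ALL. The labels do not give these lineages, which are background knowledge, and they could not be checked against marker genes, because the lists hold no expression and no gene annotation of their build (hg19) was used here.

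KDM2B is a JmjC-domain histone demethylase. Through a CXXC zinc finger it binds CpG-rich DNA that is unmethylated, and it recruits the variant Polycomb complex PRC1.1, which places ubiquitin on histone H2A, to CpG islands. In blood cells KDM2B is known for roles in stem cell maintenance and in the balance of myeloid and lymphoid output, so the comparison of K562 with lymphoid lines asks how its sites differ across these lineages.

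K562 had few but wide peaks. Its list was the shortest of the 7, with 5942 peaks against 7533 in SUP-B15, 8146 in REH, 12765 in HPB-ALL, 14839 in JURKAT, 14944 in DND41 and 15304 in SIL-ALL. The lymphoid mean was 12255 ± 3540 peaks (SD, n = 6), and the difference, K562 minus this mean, was -6313 peaks, with K562 outside the lymphoid range (two-sided exact permutation p = 0.143, the smallest that 1 line against 6 allows, Benjamini-Hochberg adjusted p = 0.286 over 6 tests). The lists did not share a lowest score, which was 50 in K562 and 80 or more in HPB-ALL and SIL-ALL. Above the highest of these floors (a score of 80.03) K562 kept 3239 peaks, more than the 2794 of REH and close to the 3372 of SUP-B15. The score has no unit, so a common floor need not mean the same in each list. K562 peaks within 500 bp of each other, counted as 1, left 4547, 76.5% of the list, whereas 55.4 to 73.8% were left in the lymphoid lists.

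The median K562 peak was 552 bp wide. The lymphoid medians were 213 bp in DND41, 213 bp in REH, 223 bp in SIL-ALL, 240 bp in JURKAT, 253 bp in HPB-ALL and 350 bp in SUP-B15, a mean of 249 ± 52.1 bp (SD, n = 6; two-sided exact permutation p = 0.143, adjusted p = 0.286). K562 therefore lay above every lymphoid list, and its 10th percentile of width, 305 bp, already exceeded the medians of 5 of the 6. Peaks of 1 kb or more numbered 1119 in K562, 18.8% of the list, against 0.724 to 5.40% of the lymphoid lists. Peaks of 3 kb or more numbered 50, against 0 to 14. With each list cut to its 5942 top-scored peaks, called equal lists from here on, the lymphoid medians were 244 to 417.5 bp, so K562 was still the widest. Wide peaks were also high-scored peaks: Spearman's rho of width and score was 0.821 over the 5942 K562 peaks, within the 0.750 to 0.914 of the lymphoid lists. The authors gave each peak a score with no unit. Apart from the common score floor, scores are therefore compared between lists only as percentiles within a list, with 100 the highest.

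**Figure D1:**
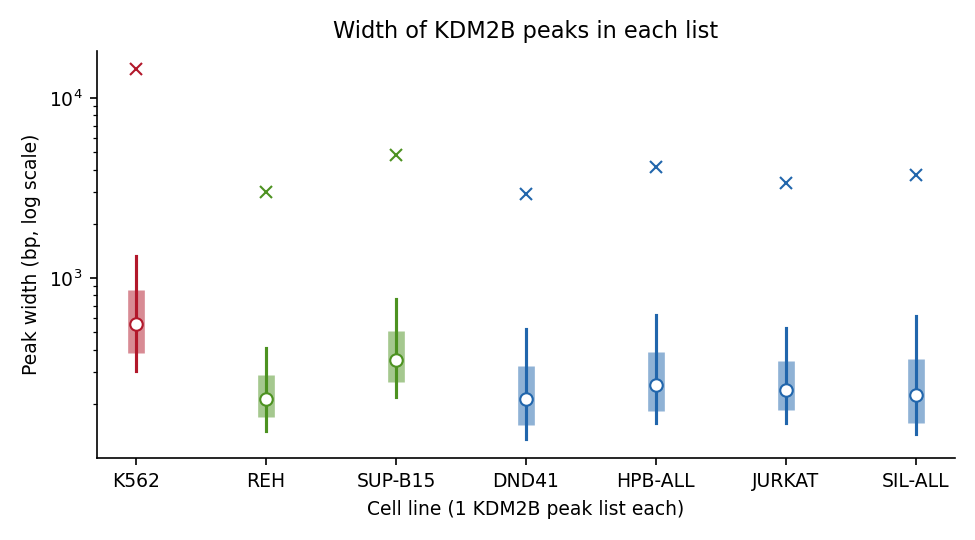
Peak width in base pairs (log axis) in each of the 7 KDM2B lists, with the median (open circle), the middle 50% of peaks (thick bar), the 10th to 90th percentile (thin line) and the widest peak (cross), for K562 (red), B-ALL lines (green) and T-ALL lines (blue). The K562 median of 552 bp lies above the 213 to 350 bp of the lymphoid lists, and its widest peak of 14443 bp above their 2927 to 4805 bp.

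Of the 5942 K562 peaks, 4426 (74.5%, Wilson 95% interval 73.4 to 75.6%) overlapped a peak of at least 1 lymphoid list. The other 1516 (25.5%, 24.4 to 26.6%) were in the K562 list alone, 763 were in 1 lymphoid list, 643 in 2, 718 in 3, 813 in 4, 869 in 5 and 620 (10.4%, 9.68 to 11.24%) in all 6. The distribution was thus high at 0 and otherwise nearly flat. Median width went from 473 bp in peaks of K562 alone to 854 bp in peaks shared with all 6, and the median score percentile from 37.2 to 76.8. With overlap of at least 50% of both peaks, 48.8% of K562 peaks were shared with any list and 0.353% with all 6, which no lymphoid peak under 50% of the width of its K562 partner could reach. Without REH, 17.6% of K562 peaks were shared with all the remaining lymphoid lists in place of 10.4%, and with equal lists 5.96% were shared with all 6. Both directions were fixed in advance: fewer lists to match can only raise this share, and shorter lymphoid lists can only lower it.

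**Figure D2:**
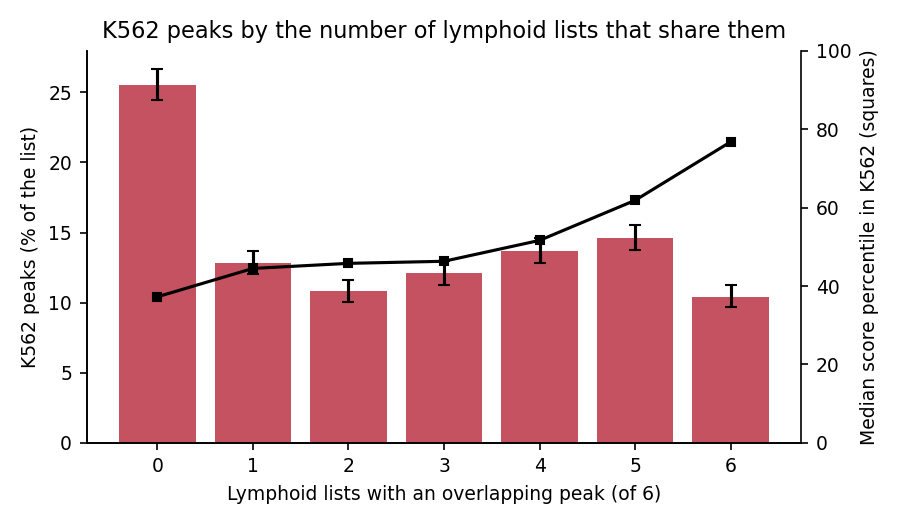
Share of the 5942 K562 peaks (bars, left axis, %, with Wilson 95% intervals) by the number of lymphoid lists holding an overlapping peak, and the median within-list score percentile of the same peaks (squares, right axis). Peaks in no lymphoid list make up 25.5% and have the lowest median percentile, 37.2, and peaks in all 6 make up 10.4% and have the highest, 76.8.

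Sharing with any lymphoid list rose with score. In 4 score groups of nearly equal size, from low to high, 62.8%, 72.7%, 78.6% and 83.9% of K562 peaks were shared with any lymphoid list, and 3.43%, 5.72%, 10.6% and 21.9% with all 6. Among peaks over 400 and up to 800 bp the same 4 groups had 64.4%, 74.1%, 80.1% and 83.4%, so the gradient was there at like width. Within the top score group the share with any list differed little over width, with 83.4% over 400 and up to 800 bp, 84.4% from there to 1600 bp and 83.1% above 1600 bp, the last class including peaks of the blocks on chromosomes 9 and 22 described below. The share with all 6 was 15.6%, 22.7% and 23.6% in the same classes, higher in the wider ones. The widest class fell into 2 kinds. Above 1600 bp, 254 of 284 peaks (89.4%, 85.3 to 92.5%) were shared, except in these blocks, where 37 of 88 (42.0%, 32.3 to 52.5%) were.

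Peaks shared with both lymphoid lineages were the largest class of shared K562 peaks. Both B-ALL and T-ALL lists held 2603 K562 peaks (43.8%), T-ALL lists alone 1520 (25.6%) and B-ALL lists alone 303 (5.10%). The T-ALL lists are 4 and longer, the B-ALL lists 2 and shorter, so these counts do not rank the lineages by likeness to K562. All 4 T-ALL lists and no B-ALL list held 313 K562 peaks, and both B-ALL lists and no T-ALL list held 76. The B-ALL-only class had the wider peaks, at a median of 600 bp, while that of the T-ALL-only class was 479.5 bp.

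By line, JURKAT held the largest share of K562 peaks in the lists as deposited. It was 52.2% (50.9 to 53.4%) in JURKAT, 48.6% in DND41, 47.3% in SIL-ALL, 43.6% in HPB-ALL, 37.6% in SUP-B15 and 31.9% (30.8 to 33.1%) in REH. With equal lists the order changed to 36.8% in SIL-ALL, 36.1% in JURKAT, 35.3% in DND41, 33.8% in HPB-ALL, 33.8% in SUP-B15 and 27.5% in REH. The lists as deposited thus placed SUP-B15 below every T-ALL line and equal lists beside HPB-ALL, while REH was lowest in both. Read from the other side, K562 peaks met 35.3% of the SUP-B15 list, 31.2% of REH, 29.4% of JURKAT, 28.5% of DND41, 26.2% of HPB-ALL and 24.6% of SIL-ALL. A shared K562 peak often spanned more than 1 lymphoid peak: 25.6 to 42.7% of the shared K562 peaks held 2 or more peaks of the partner line, whereas 5.36 to 9.35% of the shared lymphoid peaks held 2 or more K562 peaks. The score rank carried over weakly, with Spearman's rho of 0.172 to 0.230 between the percentile of a K562 peak and that of its best partner, over 1897 to 3099 shared peaks per line.

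**Figure D3:**
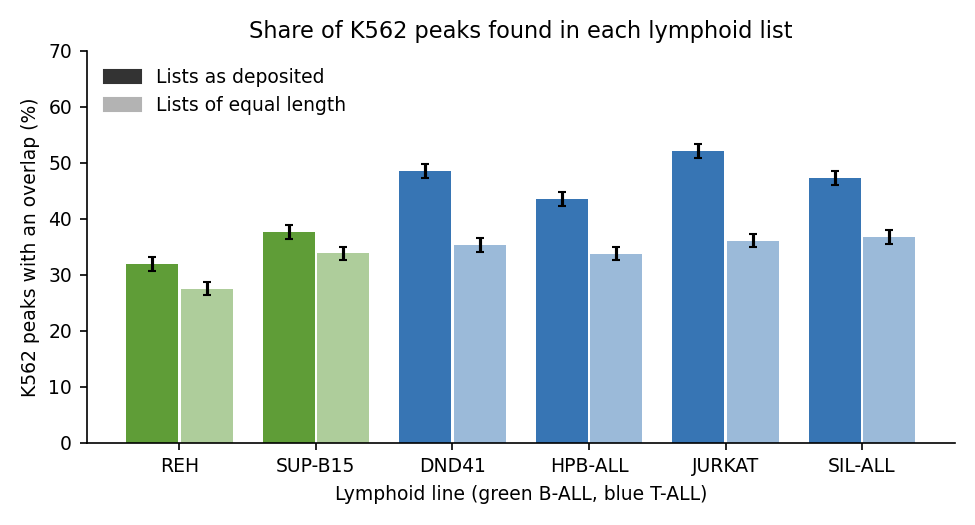
Share of the 5942 K562 peaks (%, with Wilson 95% intervals) that overlap a peak of each lymphoid line, with the lists as deposited (dark bars) and with equal lists of the 5942 top-scored peaks (light bars), for B-ALL lines (green) and T-ALL lines (blue). The spread between lines, 31.9 to 52.2% as deposited, narrows to 27.5 to 36.8% with equal lists, and REH is lowest in both.

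The likeness of K562 to the lymphoid lines was not separated from their likeness to each other. Likeness was measured as phi, the correlation of 2 lists in having or lacking a peak over all merged regions, and it averaged 0.133 over the 6 pairs of K562 with a lymphoid line and 0.141 over the 15 lymphoid pairs (difference -0.00786, two-sided exact permutation p = 1). With equal lists the means were 0.0619 and 0.163 (difference -0.101, exact permutation p = 0.429). REH lay lower still, with a difference of -0.137 when it was set against the other lines in the same way. The lymphoid pairs were mixed. As deposited, the 6 T-ALL pairs averaged 0.203 and the 8 pairs of a B-ALL with a T-ALL line 0.0854. With equal lists these means were 0.283 and 0.0791. The share of peaks found in no other list was 25.5% in K562 and 21.4 ± 4.17% (SD, n = 6, range 18.2 to 29.2%) in the lymphoid lists (two-sided exact permutation p = 0.571, adjusted p = 0.857). With equal lists it was 33.6% in K562, above the lymphoid range of 12.8 to 31.1%.

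The regions that K562 shared with all 6 lymphoid lists were led by chromosome 22. Band 22q11.21 held the highest-scored K562 peak of all (hg19, chromosome 22, 19704680 to 19712637, 7958 bp, score 2730.83), and its best lymphoid partners stood at percentiles from 46.8 in SIL-ALL to 93.1 in HPB-ALL. The next, in 22q11.23 (chromosome 22, 23520580 to 23526482, 5903 bp, score 1594.88), had partners at percentiles 56.8 in JURKAT to 96.6 in HPB-ALL. These top K562 sites were therefore middling or high, but not top, sites in the lymphoid lists. Both lie in the chromosome 22 block described below, which was chosen for many and wide K562 peaks. The peak in 16p11.2 (chromosome 16, 30669547 to 30671502, 1956 bp) differed from them, with K562 at percentile 99.9 and every lymphoid list above that value. A 4469 bp peak in 1p36.33 (chromosome 1, 857823 to 862291) stood at percentile 99.9 in K562 and at 98.7 to 99.9 in 5 lymphoid lists, but at 49.2 in HPB-ALL. Its neighbour in the same band (chromosome 1, 875358 to 878864, 3507 bp) again had its lowest partner in HPB-ALL, at 20.8, and the others at 93.9 to 99.9. The peaks in 15q15.1 (chromosome 15, 41219632 to 41223118), 9q34.13 (chromosome 9, 134148518 to 134153817), 17q25.3 (chromosome 17, 75953200 to 75956715) and 9q22.33 (chromosome 9, 102583288 to 102587159) were high in all lists, with no lymphoid partner under percentile 91.7. The remaining peak of the 10, in 22q11.21 (chromosome 22, 22087680 to 22091041) and also in the chromosome 22 block, had partners from 52.1 in SUP-B15 to 94.0 in REH.

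Among K562 peaks shared with all 4 T-ALL lists and no B-ALL list, the highest lay in 1p36.33 (chromosome 1, 933569 to 937462, 3894 bp), at K562 percentile 99.6, with 100 in SIL-ALL, 99.6 in JURKAT, 82.8 in HPB-ALL and 79.3 in DND41. The second lay in 6p12.3 (chromosome 6, 47276607 to 47277759) at K562 percentile 96.5, and the third in 1q24.1 (chromosome 1, 167190138 to 167191552) at 93.7. Peaks shared with both B-ALL lists alone were led by 2p21 (chromosome 2, 46524002 to 46527084, 3083 bp), at K562 percentile 99.4, with 98.8 in SUP-B15 and 92.9 in REH. The peak in 12q13.12 (chromosome 12, 49738423 to 49741429, 3007 bp) stood at K562 percentile 99.0, with 99.8 in SUP-B15 and 99.7 in REH. The peak in 7q31.2 (chromosome 7, 116164524 to 116166800) stood at 98.9 in K562 and 94.8 in REH, but at 34.1 in SUP-B15.

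JURKAT was the most frequent sole partner in the lists as deposited. It alone shared 262 K562 peaks (4.41% of the list), whereas REH alone shared 116, SIL-ALL 112, SUP-B15 111, HPB-ALL 83 and DND41 79. The lists differ in lowest score, 50.01 in JURKAT and REH, 50 in SUP-B15, 60 in DND41, 80 in HPB-ALL and 80.03 in SIL-ALL. Of 14839 JURKAT peaks, 7406 reached the common score floor. Sole partners were not recounted at that floor or with equal lists, so these counts do not rank the lines by likeness to K562. The highest peak of the JURKAT class lay in the chromosome 9 block (9q34.12, chromosome 9, 133970969 to 133975144, 4176 bp, K562 percentile 99.8, JURKAT percentile 79.8). The highest with REH alone lay in 19p13.2 (chromosome 19, 8398369 to 8401116) and with SUP-B15 alone in 6p21.1 (chromosome 6, 43476848 to 43478288), at percentiles 93.6 and 92.6 of those lists. The SIL-ALL example in 11q12.2 (chromosome 11, 61471853 to 61473792) stood at 99.2 in K562 and 95.9 in SIL-ALL. Those with DND41 in 1p36.32 (chromosome 1, 3568165 to 3570236) and HPB-ALL in 21q22.3 (chromosome 21, 43372840 to 43374388) were lower, at 95.6 and 95.1 in K562.

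Peaks in the K562 list alone were spread over many bands and included a few strong sites. The 10 with the highest score were, in order, in 13q33.3 (chromosome 13, 108516611 to 108521709, 5099 bp, score 1210.9), 17q12 (chromosome 17, 35290817 to 35293560), 1p36.31 (chromosome 1, 6478171 to 6481959), 19q13.32 (chromosome 19, 47522622 to 47525653), 6q24.3 (chromosome 6, 147828365 to 147830524), 9q34.12 (chromosome 9, 133861390 to 133872007), 1q32.1 (chromosome 1, 201617311 to 201619837), 7q11.23 (chromosome 7, 73037125 to 73038973), 18q12.2 (chromosome 18, 33876854 to 33878848) and 13q31.3 (chromosome 13, 92050161 to 92052789, score 603.99). Their percentiles ran from 98.2 to 99.8. They were wide for K562, from 1849 bp in 7q11.23 to 10618 bp in 9q34.12. A K562-alone peak was not always far from lymphoid binding: 318 of the 1516 (21.0%) lay within 500 bp of a lymphoid peak, 400 (26.4%) within 1 kb, 584 (38.5%) within 5 kb and 1203 (79.4%) within 50 kb, with a median distance of 11327.5 bp. Without a replicate, a site of K562 cannot be told apart from a site of this library.

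The widest K562 peaks stood side by side in 2 blocks, on 9q34.12 and on 22q11.21 to 22q11.23. Their limits were set after the values were seen, as the 1 Mb windows of chromosomes 9 and 22 with at least 10 K562 peaks and a median width of at least 1000 bp, joined from first to last. Single windows at 0 to 1 Mb of chromosome 1 (16 K562 peaks, median 1012 bp) and 148 to 149 Mb of chromosome 7 (10 peaks, median 1066.5 bp) met the same minimum and were not taken as blocks, a choice made after their values were seen. The chromosome 9 block, 133 to 134 Mb, held 56 K562 peaks, 0.942% of the list, with a median width of 1691.5 bp. The lymphoid lists held 12 peaks there in JURKAT, 6 in SIL-ALL, 4 in REH, 3 in SUP-B15, 1 in DND41 and 1 in HPB-ALL, with medians of 127 to 328 bp. Both blocks were chosen for many and wide K562 peaks. That K562 lay above the lymphoid lists in them was therefore built into the choice. Of the 56 K562 peaks of the chromosome 9 block, 51 (91.1%) were in no other list. They summed to 133.8 kb, against 0.127 to 2.85 kb in the lymphoid lists.

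Wide peaks were packed into part of the chromosome 9 block. From the first K562 peak of 2 kb or more in the block to the last (133769440 to 133975144, all in 9q34.12), 205.7 kb held 45 K562 peaks, which covered 60.1% of the stretch, and 42 of the 45 were in K562 alone. Wide peaks did not stop at this edge: the next K562 peak began 2.43 kb on, further peaks of 1188 to 1894 bp followed, and the 5300 bp peak in 9q34.13 named above lay beyond them. JURKAT had 8 peaks in the stretch, REH 3, SUP-B15 2, and DND41, HPB-ALL and SIL-ALL 0. The widest here were 133806805 to 133817908 (11104 bp, shared with REH, SUP-B15 and JURKAT), 133861390 to 133872007 (10618 bp) and 133792450 to 133801960 (9511 bp, the last 2 in no other list). Band 9q34.12 as a whole held 54 K562 peaks, 0.909% of the list, against 0.00669 to 0.0741% of the lymphoid lists. Its neighbour 9q34.13 held 7 K562 peaks (0.118%) and 0.1004 to 0.236% of the lymphoid lists, so K562 lay within the lymphoid range there. On the other side, 9q34.11 also held 54 K562 peaks (0.909%), above the 0.408 to 0.757% of the lymphoid lists but by much less.

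The chromosome 22 block, 19 to 24 Mb, held 147 K562 peaks, 2.47% of the list, against 0.385 to 0.552% of the lymphoid lists. The median width was 1276 bp in K562, 183 bp in REH, 211 bp in DND41, 249.5 bp in JURKAT, 268.5 bp in SIL-ALL, 270 bp in HPB-ALL and 315 bp in SUP-B15. Here the lymphoid lines did have peaks, 29 to 70 each, and 89 of the 147 K562 peaks (60.5%) overlapped none of them. The K562 peaks were not packed as on chromosome 9. From the first peak of 2 kb or more to the last, they covered 5.66% of 4459 kb. The window at 20 to 21 Mb, with a K562 median of 834.5 bp, did not meet the minimum and was taken in by the joining. Band 22q11.21, with 127 peaks (2.14% of the list, against 0.332 to 0.479% of the lymphoid lists), held more K562 peaks than any other band, followed by 16p13.3 with 120 and 19p13.3 with 102. The widest peak of the whole list lay in this block, in 22q11.22 (chromosome 22, 23408393 to 23422835, 14443 bp), and overlapped 3 REH peaks, 1 SUP-B15 peak and 1 SIL-ALL peak. After the last peak of 2 kb or more, which ended at 23566830 in 22q11.23, the next K562 peak began at 25800709. In this gap of 2234 kb the lymphoid lists held 28 peaks in SIL-ALL, 21 in DND41, 21 in HPB-ALL, 18 in JURKAT, 11 in REH and 6 in SUP-B15. K562 thus went from wide peaks to none within 22q11.23, where the lymphoid lists went on.

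**Figure D4:**
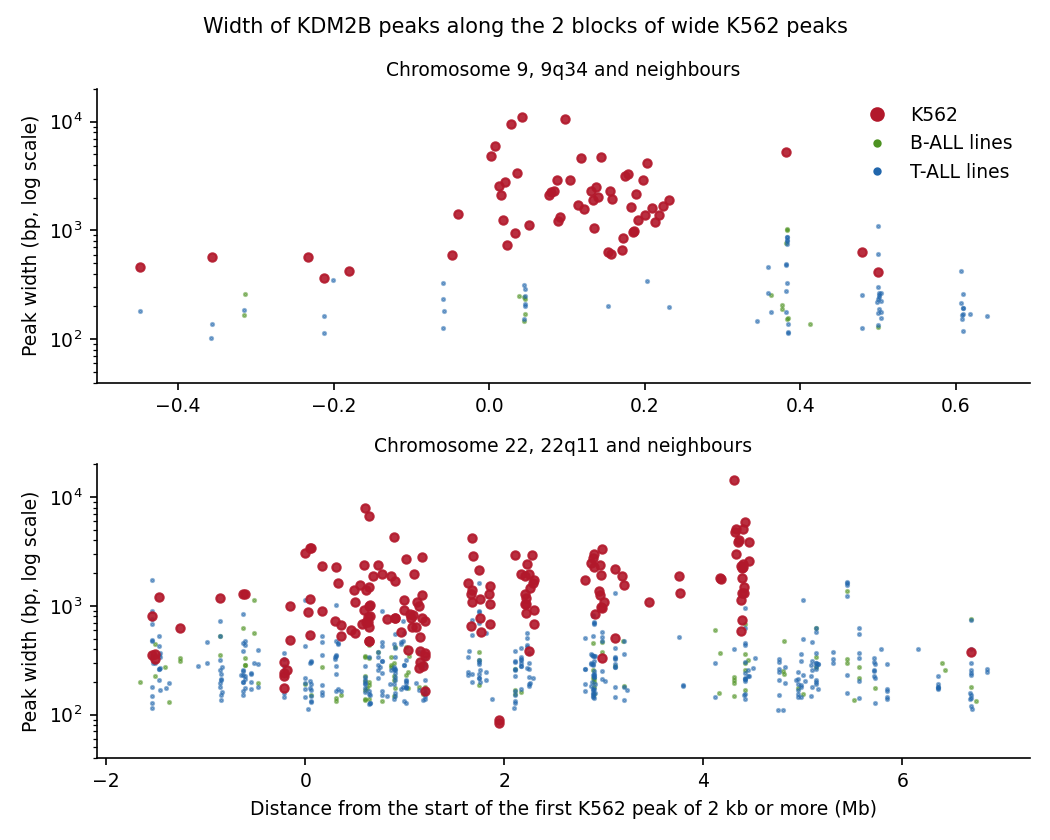
Width of each KDM2B peak (bp, log axis) against its distance in Mb from the start of the first K562 peak of 2 kb or more, along chromosome 9 (top) and chromosome 22 (bottom), for K562 (red), B-ALL lines (green) and T-ALL lines (blue). K562 peaks of 2 kb or more in the blocks span 205.7 kb of chromosome 9, with further wide peaks just beyond, and 4459 kb of chromosome 22. No K562 peak follows for 2234 kb on chromosome 22, where lymphoid peaks continue.

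Together the blocks held 203 K562 peaks, 3.42% of the list but 8.94% of the bases it covered. They contained 28 of the 50 peaks of 3 kb or more, the others being scattered over 1p36.33 with 3, 17q25.3 and 7p22.3 with 2 each and further bands with 1. Inside the blocks 140 of 203 peaks (69.0%) were in K562 alone, outside 1376 of 5739 (24.0%). Wide peaks of lower score were found there. Spearman's rho of width and score was 0.714 over the peaks of the blocks and 0.840 outside, and the median percentile of peaks of 2 kb or more was 92.0 and 98.1. Of the 64 peaks of 2 kb or more in the blocks, 19 (29.7%) stood under percentile 80, with the lowest at 24.1. Outside the blocks none of the 141 such peaks stood under percentile 80, and the lowest was at 85.4. When K562 peaks less than 5 kb apart were joined, the 5 longest stretches measured 52.9, 51.7, 32.2, 29.5 and 28.6 kb and all lay in 9q34.12 or 22q11.22. K562 had 6 stretches of 20 kb or more and the lymphoid lists 0, their longest being 13.8 to 17.9 kb. The blocks do not set the width of the list, whose median was 541 bp without them. Copy number and input signal were not analysed here, and their part in the blocks was not tested.

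Over the genome in windows of 10 Mb, K562 had the highest share of the 7 lists in 65 of 308 windows (21.1%), against 23 windows in SIL-ALL to 78 in HPB-ALL. With equal lists K562 had the highest share in 14.5%. The windows furthest above the lymphoid median again lay on 9q and 22q, and on the tips of 1p and 16p. In 9q33.3 to 9q34.3 (130 to 140 Mb) K562 had 2.73% of its peaks (2.34 to 3.17%), with the lymphoid shares from 0.883 to 1.85%. In 22q11.21 to 22q12.2 (20 to 30 Mb) it had 1.87%, and the lymphoid shares were 0.478 to 0.798%. In 22p11.2 to 22q11.21 (10 to 20 Mb) it had 0.942%, against 0.207 to 0.307%. These 3 windows take in the blocks. In 1p36.33 to 1p36.22 (0 to 10 Mb) it had 2.31% (1.95 to 2.72%), above the 0.869 to 1.40% of the lymphoid lists. In 16p13.3 to 16p13.2 (0 to 10 Mb) it had 2.09%, and the nearest lymphoid list, SIL-ALL, at 1.79%, lay within its interval of 1.75 to 2.48%.

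The windows furthest below the lymphoid median lay on 17p, the distal part of 22q, 12p and 11q, and K562 was the lowest list in each. In 17p13.3 to 17p13.1 (0 to 10 Mb) 28 peaks made 0.471% of its list (0.326 to 0.680%), against 1.11 to 1.84% in the lymphoid lists. In 22q13.1 to 22q13.33 (40 to 50 Mb) 16 peaks made 0.269%, against 0.566 to 0.969%, and in 22q12.2 to 22q13.1 (30 to 40 Mb) 15 peaks made 0.252%, against 0.588 to 1.06%. Chromosome 22 therefore held windows of both kinds, some among those furthest above the lymphoid median and some among those furthest below it. In 12p13.33 to 12p13.31 (0 to 10 Mb) 12 peaks made 0.202%, against 0.505 to 0.773%. In 11q12.2 to 11q13.3 (60 to 70 Mb) K562 had 1.45% (1.17 to 1.78%), and JURKAT at 1.57% was within this interval, so this window did not stand apart.

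**Figure D5:**
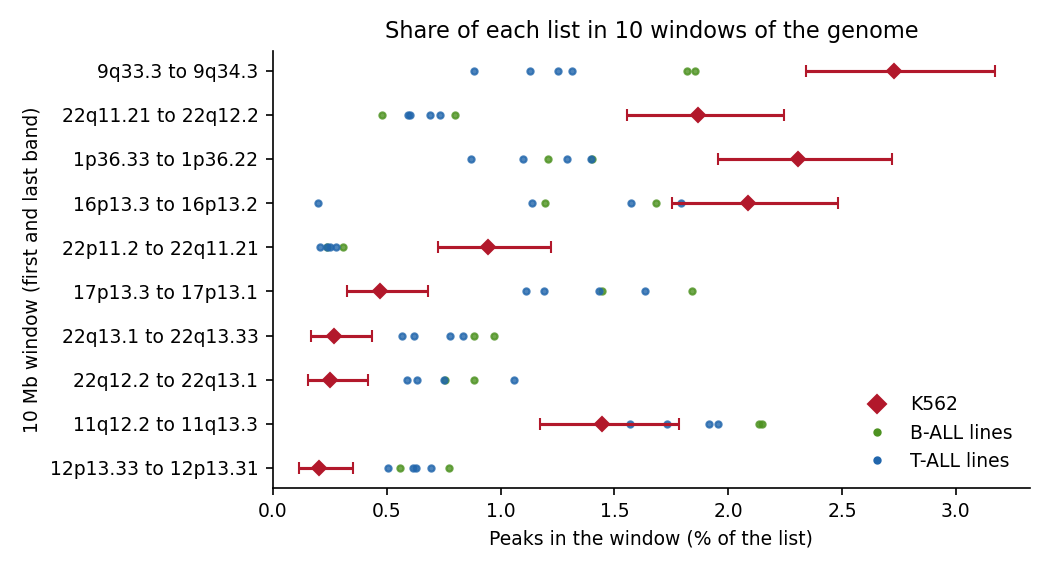
Share of each list (% of its peaks) in the 5 windows of 10 Mb where K562 lay furthest above and the 5 where it lay furthest below the lymphoid median, named by their first and last bands, for K562 (red diamonds, with Wilson 95% intervals), B-ALL lines (green) and T-ALL lines (blue). In the upper 5 K562 is the highest list, and in the lower 5 it is the lowest.

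Long stretches without any K562 peak crossed regions that the lymphoid lines bound. The first by this count ran from 12p13.31 to 12p12.1 (chromosome 12, 8850677 to 25403122, 16.6 Mb) and held 18 regions bound in at least 4 lymphoid lists, with 56 peaks in JURKAT, 48 in SIL-ALL, 43 in DND41, 43 in HPB-ALL, 19 in SUP-B15 and 8 in REH. The next ran from 3q12.3 to 3q21.1 (chromosome 3, 101569012 to 122640963, 21.1 Mb) with 17 such regions, and from 22q12.2 to 22q13.1 (chromosome 22, 30642772 to 37915188, 7.27 Mb) with 17. Stretches in 2q32.2 to 2q33.1 (chromosome 2, 191746383 to 201171562) and 14q13.2 to 14q22.1 (chromosome 14, 36004565 to 51297011) held 15 each. Such gaps were not found in K562 alone: in SUP-B15 a stretch of 4q32.1 to 4q35.2 held 19 regions of at least 4 other lists, and the fullest such stretch of the remaining lists held 4 to 13. These stretches were looked for after the values were seen, and copy number was not used here.

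Of 1034 regions with a peak in all 6 lymphoid lists, 709 (68.6%) held a K562 peak and 325 (31.4%) did not. The regions K562 lacked ranked lower in the lymphoid lists, with a median mean percentile of 69.7 against 81.8 for those it held. For 162 of the 325 (49.8%) no K562 peak lay within 100 kb, and for 16 (4.92%) a K562 peak lay within 1 kb. K562 was not the only line to lack regions of all 6 other lists. REH lacked 367 of 1076, SUP-B15 181 of 890, HPB-ALL 107 of 816, SIL-ALL 70 of 779, JURKAT 43 of 752 and DND41 23 of 732. The 3 shortest lists, K562, SUP-B15 and REH, lacked most. With a lymphoid line left out, fewer lists are required, and the K562 number rose for each of the 6. It was 693 without REH, 547 without SUP-B15 and 339 to 372 without a T-ALL line. The regions held by all the remaining lists were not counted, so it is not known whether the share that K562 lacked changed. With equal lists K562 lacked 124, beside 209 in REH.

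The strongest region that K562 lacked lay in 21p11.2 (chromosome 21, 9825451 to 9827610) and stood at percentile 99.9 or above in every lymphoid list, with the nearest K562 peak 7274695 bp away. The second lay in 17p13.3 (chromosome 17, 1956745 to 1960563), within the window in which K562 was low, at percentiles 93.9 in JURKAT to 99.8 in SUP-B15, and had a K562 peak 1900 bp away. The third lay in 13q34 (chromosome 13, 114896371 to 114898558), at 94.5 in SUP-B15 to 99.7 in DND41, with the nearest K562 peak 328889 bp away. These 3 were thus among the top sites of the lymphoid lists. Whether they lie in a gene was not determined. No list was filtered here for repeats or hard-to-map sequence, and whether these bear on the 21p11.2 region was not tested.

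K562 peaks lay in gene-dense bands about as often as lymphoid peaks. The 231 bands with most protein-coding genes per Mb made up 25.02% of the banded genome length and held 59.0% of the genes, and they contained 61.3% of K562 peaks against 59.2 ± 4.27% (SD, n = 6, range 54.0 to 65.2%) of lymphoid peaks (two-sided exact permutation p = 0.714, adjusted p = 0.857). K562-alone peaks were in such bands in 67.5% (65.1 to 69.9%), or 65.5% (62.9 to 67.9%) outside the blocks, against 60.6% (56.7 to 64.4%) of peaks shared with all 6 and 58.9% of the rest. K562-alone peaks thus had the largest share in gene-dense bands of these classes, which were not tested against each other.

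On chromosome X, for which CpG island positions of hg19 could be had, 35 of 36 K562 peaks (97.2%, 85.8 to 99.5%) overlapped a CpG island, the DNA that the CXXC finger of KDM2B binds when unmethylated. The lymphoid shares were 65.6% of 61 peaks in JURKAT, 72.2% of 18 in REH, 74.0% of 96 in DND41, 83.3% of 24 in SUP-B15, 83.6% of 122 in SIL-ALL and 88.4% of 86 in HPB-ALL, a mean of 77.8 ± 8.62% (SD, n = 6). K562 lay above all 6 (two-sided exact permutation p = 0.143, the smallest possible, adjusted p = 0.286), but the exact permutation p was 0.286 with equal lists and 0.286 with 200 bp around midpoints. With a lymphoid line left out, the exact permutation p was 0.333 without REH or without DND41. It was 0.167, the smallest possible with a line left out, without SUP-B15, HPB-ALL, JURKAT or SIL-ALL. The K562 interval overlapped those of REH, SUP-B15, HPB-ALL and SIL-ALL, and K562 peaks on this chromosome were also the widest, at a median of 397.5 bp where the lymphoid medians were 143 to 264 bp.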

How the data were processed

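The authors deposited 1 peak list per KDM2B library, which gives the position, a name and a score for each peak. The score carries no unit and was used as deposited. The submitters' processing notes name Bowtie 1.1.1, FastQC 0.10.1 and the build hg19. Peak names are in the style of MACS, but its version, its control library and its cut-off were not given in the sources used here. Depth is unknown, and intervals are Wilson 95% intervals for counting error only.

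Overlap was at least 1 bp. Phi and regions came from peaks of all lists merged where they overlapped. K562 was compared with 6 lines by two-sided exact permutation over which of 7 lines is K562, with the smallest p of 0.143 and Benjamini-Hochberg adjustment over 6 tests. Alternatives were equal lists, the upper 50% of each list by score, a common score floor, 50% reciprocal overlap, 200 bp around midpoints, a 500 bp merging distance, 5 Mb windows, autosomes and each lymphoid line left out. Leaving out the blocks was added after seeing the data.

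The members, comparisons and lists were chosen with earlier results of these data known. Regions named are the 10 highest-scored K562 peaks in no other list and the 10 in all 6, the 5 widest, the highest with each sole partner, the 3 highest of the T-ALL-only and B-ALL-only classes, the 3 highest regions K562 lacks, and the 5 highest and 5 lowest windows by difference from the lymphoid median. Blocks, edges, stretches, bands and gaps were chosen after their values were seen.

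Bands come from the hg19 cytoband table of circlize 0.4.16, by peak midpoint. Gene density came from a GRCh38.p14 RefSeq table through band names only. Peaks were not assigned to genes, so gene lists and sequences were not analysed here. CpG islands of chromosome X come from pyranges 0.1.4, whose build was read from the offset of 50000 bp between the X and Y copies of pseudoautosomal islands (85 matched, 0 at no offset). Counting was tested on simulated data. Tools were scipy 1.17.1, numpy 2.4.6, matplotlib 3.10.9, pandas 2.3.3 and Python 3.11.15.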

Additional observations from a re-analysis of the deposited data

Results flagged for a closer look

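Of 30 values per line examined for a list far from the others, 12 stood apart, and all 12 belong to K562. The blocks and windows among them were picked because K562 was extreme there, so that K562 stands apart in them was fixed by the choice, and the width values overlap in what they measure. The tally therefore cannot be read against the 1 in 20 that chance gives. For width these were the K562 median of 552 bp (next 350 bp), the 90th percentile of 1318 bp, the widest peak of 14443 bp, and the shares of peaks of 1 kb or more (18.8%) and of 3 kb or more (0.841%). In the chromosome 9 block these were the K562 share of 0.942% and median width of 1691.5 bp, and in the chromosome 22 block the share of 2.47% and median width of 1276 bp. Among windows these were the K562 shares of 1.87% at 20 to 30 Mb and 0.942% at 10 to 20 Mb of chromosome 22, and of 2.31% at 0 to 10 Mb of chromosome 1.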

How the results depend on the processing

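Of 92 values of 11 results recomputed under alternatives, 29 moved and 6 reversed. The other 57 include differences that held only their sign: list length was -3157 peaks in the upper 50% of each list and -3125 after 500 bp merging, the share in no other list 13.5 percentage points with equal lists and 1.32 to 5.75 with a lymphoid line left out, in place of 4.08, and the phi difference -0.101 with equal lists. The design cannot give a p under 0.143, so no test could lose or pass the threshold of 0.05. K562 peaks shared with any lymphoid list made 66.4% with equal lists, 75.8% with a common score floor, 66.6% with 200 bp around midpoints, 48.8% with 50% reciprocal overlap, 76.0% without the blocks and 70.1 to 73.2% with a lymphoid line left out. Those shared with all lymphoid lists made 5.96% with equal lists, 8.95% in the upper 50% of each list by score, 7.84% with a common floor, 1.498% with 200 bp peaks, 0.353% with 50% reciprocal overlap and 10.9 to 17.6% with a line left out. The phi difference, -0.00786 as reported, was 0.0114 with a common floor, 0.0021 without the blocks, and 0.0292 without DND41, 0.0305 without HPB-ALL, 0.00655 without JURKAT and 0.0238 without SIL-ALL, a range of -0.0331 to 0.0305 over all lymphoid lines left out. Regions that K562 lacked numbered 124 with equal lists, 165 in the upper 50% of each list, 133 with a common floor, 547 without SUP-B15, 693 without REH and 339 to 693 over all lymphoid lines left out. The width and score correlation was 0.803 in the top-scored 50% of the list and 0.840 without the blocks, and K562 led in 14.5% of windows with equal lists. Reciprocal overlap and 200 bp peaks change the overlap rule or the width of all peaks, and the other alternatives leave out peaks or lists. Some directions were fixed in advance, so only the size of those changes carries information. Leaving out a list can only raise the share in all lymphoid lists and lower the share in any. Equal lists keep the whole K562 list and shorten the others, so both shares can only fall. Reciprocal overlap can only lower them too. The cause of the other changes was not tested further. Merged regions allow no 50% reciprocal overlap, so it was not run for phi and lacking regions. No paired analysis was possible because every line contributed a single list. Unknown depth limits every statement that a peak is missing.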
